A study of Mus musculus with 2 samples.

Results

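Of 33788 CTCF peaks deposited for mouse embryonic stem cells (ESCs), 444 were wide but had a modest summit. They were chosen as the peaks on chromosomes 1 to 19 with a width of at least 1800 bp and a summit height under 30 tags, and the stretch of chromosome 8 around the Ctcf gene, which the cells also carry on an integrated BAC, was left out. On the same chromosomes and outside that stretch lie 33207 peaks. Of these, 46 were as wide with a summit of 30 tags or more (wide peaks with tall summits) and 32125 were narrower with a summit under 30 tags (narrower peaks with modest summits). Both served for comparison. The other 592 peaks were narrower and tall.

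The cells were R1/E ESCs, kept in LIF, that stably express CTCF with a GFP-containing LAP tag from a BAC, next to the untagged protein of the cells. The chromatin, fixed with 1% formaldehyde and sheared by sonication to an average of 500 bp, was precipitated with a goat antibody to GFP in 1 library and with goat IgG as isotype control in the other. The label of the IgG library also calls it input DNA. It was read here as the IgG control. There is 1 library per antibody, with 8391191 CTCF and 7988889 IgG tags of 35 bp, so no value below has a replicate, and all intervals are 95% intervals for counting error only. Width, height and tag counts come from the same tags that chose the peaks, and are given as a description without a test.

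CTCF is a zinc finger protein that binds a long, directional DNA motif, and cohesin accumulates at many of its sites and holds DNA loops there. In ChIP-seq, a single bound site usually gives 1 narrow mound of tags whose top lies close to the motif. A peak caller joins neighbouring mounds into 1 peak when the tags between them do not fall low enough, so a wide peak can hold more than 1 bound site or a broad field of weak signal.

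The motif was searched on both strands with a matrix made from 192 CTCF motif sequences, whose consensus is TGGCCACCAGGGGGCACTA, at a p-value of at most 1e-05. The sequences below are shown because most of them lie under separate mounds of tags within 3 of the wide peaks. They were read from the mm9 genome, 5′ to 3′ on the strand of the motif, with the motif in capitals and 5 flanking bases on each side. These peaks lie upstream of Trim71 at chr9:114490138-114493444, in an intron of Pdzd7 at chr19:45104547-45107832 and in an intron of 4933432B09Rik at chr15:79480798-79483001. Coordinates in the list are those of the capitals.
Trim71, chr9:114490737-114490755, minus strand: aaagcTCGCCACTGGGGGGCAGAGgtgag
Trim71, chr9:114491489-114491507, minus strand: catggAGGCCAGAAGAGGGCGCTGgatcc
Trim71, chr9:114492099-114492117, plus strand: agaggAAGCCAAAAGAGGGCGTTGgatcc
Trim71, chr9:114493034-114493052, plus strand: ccgcgCTGCCGCTAGGTGGCGCTCggcgc
Pdzd7, chr19:45105496-45105514, minus strand: tccttTCACCACCAGGGGGCAGTGtgctg
Pdzd7, chr19:45106503-45106521, minus strand: agataTGGCCACTAGGAGGGGCTCtgtgt
Pdzd7, chr19:45107358-45107376, plus strand: aggacTGGCCACTAGAGGGACTTAgattc
4933432B09Rik, chr15:79481436-79481454, minus strand: gaataGAACCAGCTGGGGGCAGGGaccct
4933432B09Rik, chr15:79482122-79482140, minus strand: tccaaAGGCCAGAAGGGGGCATCAgctgc
4933432B09Rik, chr15:79482516-79482534, minus strand: tgcagAGGCCAGAAGAGGGCACCAaatcc
4933432B09Rik, chr15:79482718-79482736, plus strand: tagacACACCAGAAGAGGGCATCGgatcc

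Most wide modest peaks showed several tops in the depth of tags rather than 1. Whether counting noise in a broad field of weak signal would give such tops was not tested. Their width ran from 1802 to 3681 bp with a median of 2018 bp, 63 of them being at least 2500 bp and 13 at least 3000 bp wide. Summit heights ran from 9 to 29 tags with a median of 18. The median peak held 73.5 CTCF tags (lowest 42, highest 160) and 8 IgG tags (lowest 0, highest 28). The MACS score, which is 10 times the negative log10 of its p-value, had a median of 356 and reached 1036.5. For narrower peaks with modest summits the median width was 826 bp, the median height 12 tags and the median score 115. At the threshold of width, the narrowest 4 members all measured 1802 bp, and the 3 peaks just outside measured 1799, 1798 and 1797 bp with summits of 19, 20 and 15 tags. At the threshold of height, 11 members had a summit of 29 tags, of which the 3 widest measured 2460, 2523 and 3199 bp, and 3 peaks with a summit of 30 tags and widths of 3926, 2920 and 2377 bp lay outside.

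Local maxima were read from the depth of tags extended to the fragment length of 186 bp, as tops that rise by at least 5 tags above the valley beside them and lie at least 1 fragment length apart. By this count 443 of the 444 wide modest peaks had 2 or more maxima, against 30.1% of all peaks in the same scope. In 367 of them there were 3 or more, against 5.7% of all. Wide peaks with tall summits had 2 or more in 46 of 46. They had 3 or more in 84.8%, and the members differed from them by -2.12 points (-10.7 to 11.3). There were 3 maxima in 193 members, 4 in 114, 2 in 76, 5 in 48, 6 in 11, 7 in 1 and a single one in 1. A wide peak has more room for maxima. Per kb of peak, the median was 1.57 maxima (1.54 to 1.60) in wide modest peaks, 1.51 (1.38 to 1.60) in wide peaks with tall summits and 1.52 (1.52 to 1.53) in narrower peaks with modest summits. Members with 2 maxima had a median width of 1923 bp, those with 4 of 2093.5 bp and those with 6 of 2916 bp. In the IgG library the same rule found 2 or more maxima in 2 of the 444 members, against 0.0331% of all peaks, and 1 in 39 members. The mean IgG depth at the summits of the members was 0.766 tags, so a rise of 5 tags was hard to reach. The IgG count therefore does not measure noise in the CTCF depth.

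**Figure D1:**
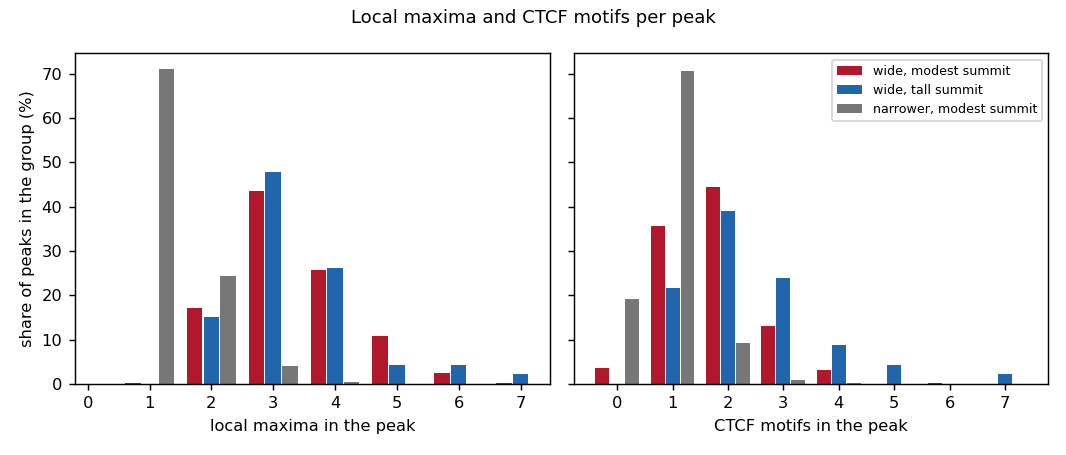
Share of peaks (%) by the number of local maxima (left) and of CTCF motifs at p 1e-05 (right) in the peak, for 444 wide peaks with modest summits, 46 wide peaks with tall summits and 32125 narrower peaks with modest summits. Wide modest peaks most often held 3 maxima (43.5% of them) and 2 motifs (44.4%).

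The lower mounds often came close to the highest one, and tag depth was low between them. The highest maximum of a wide modest peak had a median height of 18 tags, the second 12 tags and all lower ones 9 tags, while the lowest point between neighbouring maxima had a median depth of 2 tags. The count of maxima asks for a rise of at least 5 tags, so some dip between them is set by that rule. The second maximum reached a median of 71.4% of the height of the highest. It reached at least 50% of it in 396 of 443 members and at least 80% in 168, or 37.9%. In wide peaks with tall summits the second maximum reached a median of 46.3% of the highest and at least 80% of it in 6.52% of peaks. In the narrower peaks with modest summits that had a second maximum, these values were 64.3% and 30.3%, and their lowest points also had a median depth of 2 tags. The cap on summit height in the rule itself limits how far the highest maximum can stand out, so the contrast with tall peaks is partly set by the choice of peaks. Neighbouring maxima of wide modest peaks lay a median of 494 bp apart (middle 50% of the spacings from 359 to 693 bp), the highest and the second a median of 807 bp apart, and the first and last maximum spanned a median of 1243 bp.

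**Figure D2:**
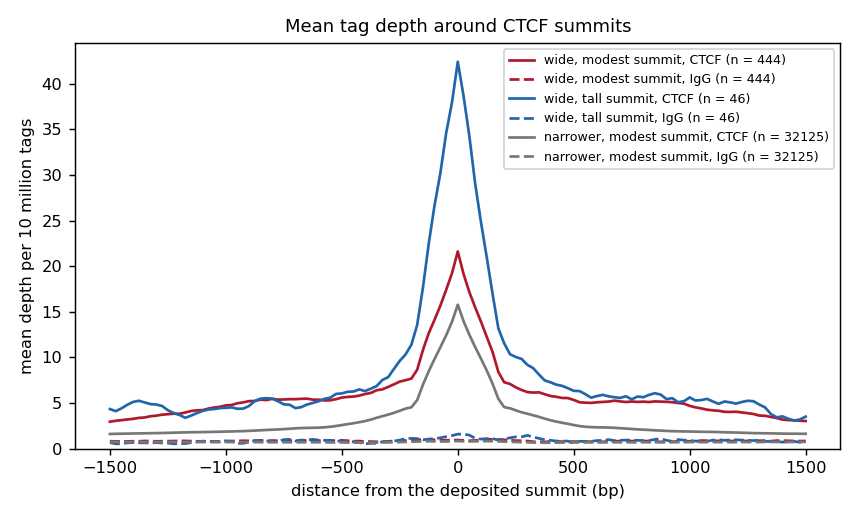
Mean depth of extended tags, scaled to 10000000 tags per library (vertical axis), by distance from the deposited summit in bp (horizontal axis), for the CTCF library (solid lines) and the IgG library (dashed lines) in 3 groups of peaks. At 500 bp to either side of the summit the wide modest peaks had a mean CTCF depth of 5.61 and 5.35, and narrower modest peaks 2.60 on both sides.

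The CTCF tags of wide modest peaks were therefore spread out. A median of 28.3% of a member's CTCF tags (27.4 to 29.3) lay within 150 bp of its summit, against 39.3% in wide peaks with tall summits and 61.5% in narrower peaks with modest summits. This share is taken over the whole peak, whose width the rule sets. A fixed window covers less of a wide peak, so the contrast with narrower peaks follows in large part from the choice of peaks. Averaged over the members and scaled to 10000000 tags, depth was 21.6 at the summit and still 4.75 and 4.70 at 1000 bp to the left and right. The summit itself often lay off centre. It was in the outer 25% of the peak on either side in 153 of 444 members, or 34.5%, against 5.1% of all peaks. In wide peaks with tall summits it was so in 39.1%. The measure is a part of the width, which the rule sets, so the contrast with narrower peaks is partly fixed by the choice of peaks. In bp, the summit lay a median of 615.5 bp from the nearer edge in members and 337 bp in narrower peaks with modest summits.

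Tags away from the summit exceeded the control as well. Scaled by library depth, the CTCF library held 8.76 times the tags of the IgG library over the wide modest peaks (exact interval 8.47 to 9.07), against 8.66 in narrower peaks with modest summits. More than 150 bp from the summit the ratio was 7.36 (7.09 to 7.64), against 5.71 (5.66 to 5.76) in narrower peaks with modest summits. In wide peaks with tall summits it was 8.08 (7.26 to 9.02) there and 10.8 (9.78 to 11.9) over the whole peak. The peaks were called on the CTCF library against the IgG library, and the rule keeps those with tags far from the summit. The excess and its contrast with narrower peaks are thus partly set by the choice of peaks and are a description. The ratio was 1.35 in the flanks from 2 to 10 kb outside the members. IgG tags per base were 1.16 times as dense in the members as in those flanks (1.12 to 1.20). For wide peaks with tall summits and their flanks this value was 1.31 (1.19 to 1.46). The ratio of single members varied widely. The lowest was 2.74 (1.52 to 5.18), in an intron of the kinase gene Mapk6 at chr9:75230901-75232763, with 46 CTCF and 16 IgG tags, and 1 member, upstream of Serpinb1c at chr13:32993788-32995711, had 60 CTCF tags and 0 IgG tags. The 2 members with more than 1 IgG maximum were in an intron of Plag1, a zinc finger gene (chr4:3851000-3853227, 68 CTCF and 16 IgG tags, 5 CTCF and 2 IgG maxima), and over the immunoglobulin V segment Gm16594 (chr12:114953853-114956930, 115 CTCF and 28 IgG tags, 5 CTCF and 3 IgG maxima).

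CTCF motifs lay under the summits of most wide modest peaks, but not more often than under summits of equal height in narrower peaks. A motif was centred within 150 bp of the summit in 363 of 444 members, 81.8% (Wilson interval 77.9 to 85.1), against 73.6% of all peaks. The share was 8.64 percentage points higher than in narrower peaks with modest summits (Newcombe interval 4.75 to 12). After the narrower peaks were weighted to the summit heights of the members, the difference was -1.69 points (-5.59 to 1.68), an interval that includes 0. Wide peaks with tall summits had a motif at 43 of 46 summits, and the wide modest share was 11.7 points below theirs (difference -11.7, -17.5 to -0.251). The best motif near the summit scored a median of 19.9 bits (19.3 to 20.3) in members and 19.1 bits (19.1 to 19.2) in narrower peaks with modest summits.

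Many wide modest peaks held more than 1 motif. There were 2 or more in 270 of 444 members, 60.8% (56.2 to 65.2), against 11.4% of all peaks, and 3 or more in 73, 16.4%, against 1.31%. Wide peaks with tall summits had 2 or more in 78.3%, so the members were 17.5 percentage points below them (difference -17.5, -28 to -2.92), and 3 or more in 39.1% (difference -22.7, -37.4 to -9.42). Only 16 members, 3.6% (2.23 to 5.77), held none, against 18.8% of all peaks. These shares grow with the length of sequence searched. Per kb, the members held a median of 0.888 motifs (0.798 to 0.926), fewer than the 1.14 (1.14 to 1.15) of narrower peaks with modest summits. In wide peaks with tall summits the median was 1.06 (0.890 to 1.16), whose interval overlaps that of the members. Maxima outnumbered motifs in 365 of the 444 members, both were equal in 64, and motifs outnumbered maxima in 15. That count was made for the members only, so it does not show a trait particular to them. Of the 16 members without a motif at p 1e-05, 15 had at least 1 at p 1e-04.

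Motifs were found at the second maximum far more often than in the valleys, and much less often at the lower ones. Within 150 bp, a motif was present at 361 of 444 highest maxima, 81.3% (77.4 to 84.7), at 214 of 443 second maxima, 48.3% (43.7 to 53), and at 108 of 614 lower maxima, 17.6% (14.8 to 20.8). At the lowest points between maxima it was present in 107 of 1057 places, 10.1% (8.45 to 12.1), and at places 2000 bp outside the peak edges in 5.52% (4.2 to 7.22). The second maxima exceeded the lowest points by 38.2 percentage points (33.2 to 43.1) and the lower maxima by 7.47 points (4.04 to 11.1). In wide peaks with tall summits, 52.2% of second maxima had a motif, 34.2 points above their own lowest points (17.9 to 49.1). The lower maxima of those peaks had one in 21.5% and their lowest points in 18%, a difference of 3.52 points (-8.1 to 16.4). In narrower peaks with modest summits that had a second maximum, it carried a motif in 19.4% (18.6 to 20.2), 4.64 points above their own lowest points (3.60 to 5.69). With a window of 50 bp in place of 150 bp, the second maxima of wide modest peaks still exceeded the lowest points, by 14.7 points (11 to 18.8). The interval for their lower maxima then included 0 (2.27 points, -0.0107 to 4.83), and the difference for the second maxima of narrower peaks turned negative (-0.956 points, -1.69 to -0.215). The second maxima of narrower peaks lay closer to the highest one, at a median of 372 bp.

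**Figure D3:**
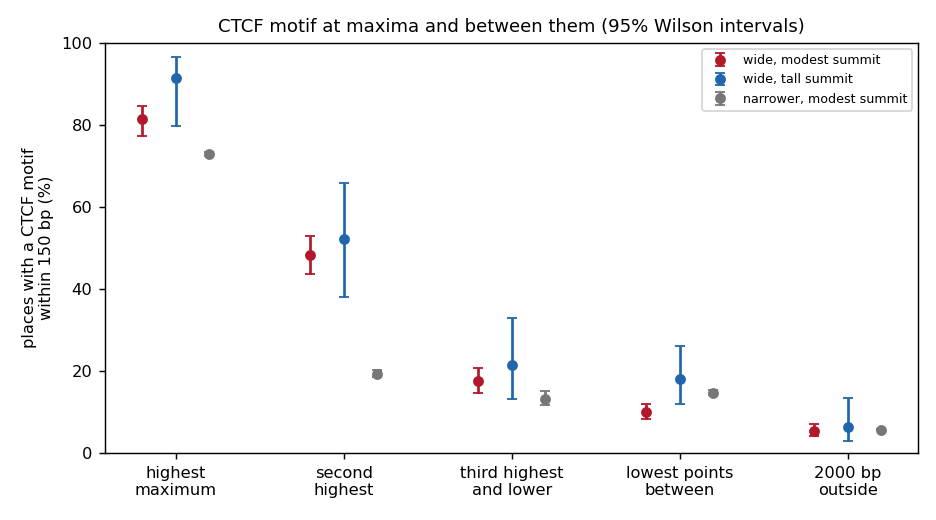
Share of places (%) with a CTCF motif centred within 150 bp, at the highest, the second and the lower maxima, at the lowest points between maxima and 2000 bp outside the peak edges, with 95% Wilson intervals, in 3 groups of peaks. In wide modest peaks the share went from 81.3% at the highest maximum to 48.3% at the second and 17.6% at lower ones, with 10.1% at the lowest points between them.

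Part of that order goes with height, since the lower maxima are lower. Maxima of equal height were therefore compared with the highest maxima of narrower peaks with modest summits, by classes of height that were set after the data had been seen. Among maxima of 5 to 9 tags, 56 of 451 that were not the highest of a wide modest peak had a motif, 12.4% (9.69 to 15.8), against 53.5% (52.3 to 54.6) of 7330 highest maxima of narrower peaks. Among maxima of 10 to 14 tags, the same comparison gave 158 of 459, 34.4% (30.2 to 38.9), against 73.1% (72.3 to 73.8) of 13628. The difference was -38.6 points (-42.9 to -34.1). Among maxima of 15 to 19 tags, 91 of 125 had a motif, 72.8%, against 84.4%, a difference of -11.6 points (-20 to -4.52). Among those of 20 to 29 tags it was 17 of 22, 77.3%, against 87.2%, and the interval of the difference, -30.6 to 2.76 points, included 0. The highest maxima of wide modest peaks had a motif in 68.6%, 81.4% and 90.2% of the last 3 classes, and the intervals of their differences from narrower peaks, -13.9 to 3.63, -9.81 to 2.28 and -2.35 to 6.80 points, all included 0. The authors' p-value was passed by the whole peak. In narrower peaks with modest summits it mostly held a single maximum, and in 28.9% of them 2 or more. A lower maximum of a wide peak did not have to pass by itself, so the 2 sets of maxima were not chosen alike. The part of this in the differences was not tested.

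**Figure D4:**
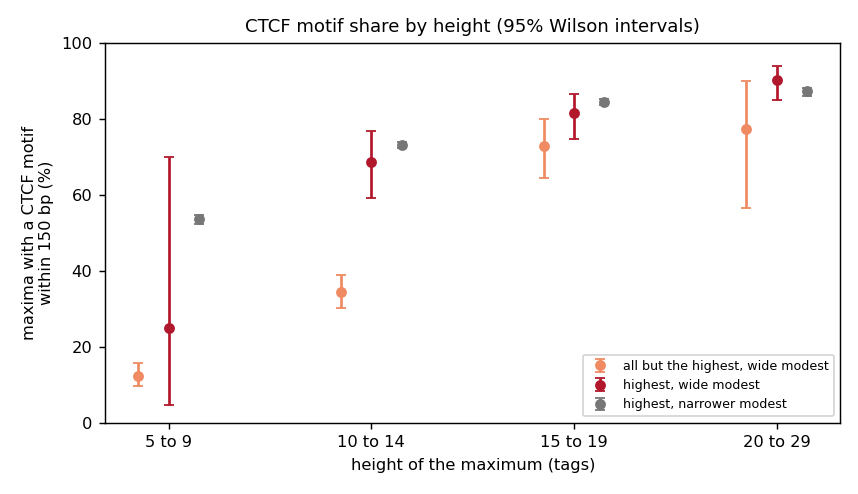
Share of local maxima (%) with a CTCF motif within 150 bp by the height of the maximum in tags, with 95% Wilson intervals, for all but the highest and for the highest maxima of wide modest peaks and for the highest maxima of narrower modest peaks. Between 10 and 14 tags, 34.4% of the lower maxima of wide peaks had a motif against 73.1% of the highest maxima of narrower peaks, and the shares were closer among taller maxima.

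Taken by member, the 2 highest maxima each had a motif within 150 bp in 162 of 443 wide modest peaks, 36.6% (32.2 to 41.2). In these, at least 2 different motifs lay near the 2 maxima together. Only the highest had a motif in 194, 43.8%, only the second in 48, 10.8%, and neither in 35, 7.9%. In the other 4, a single motif lay near both. In 65 members there was a motif in the peak but none within 150 bp of the summit. These counts by member were not made for other peaks, so they are no comparison. Neighbouring motifs of the 270 members with 2 or more formed 360 pairs with a median spacing of 822.5 bp (761 to 875). Both motifs of a pair lay on the same strand in 208 pairs, 57.8% (52.6 to 62.8), faced each other in 63, 17.5% (13.9 to 21.8), and pointed away from each other in 89, 24.7% (20.5 to 29.4). In narrower peaks with modest summits the same shares were 55.3% (53.7 to 56.9), 21% (19.7 to 22.4) and 23.7% (22.4 to 25.1) of 3627 pairs. The difference between the groups was not tested.

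The most frequent run of 11 letters in the motifs of the 3 groups of peaks was CCAGAAGAGGG, which stands in several of the motifs printed above. These letters also occur in copies of B2, a family of short interspersed repeats that carries CTCF motifs in the mouse genome. On the strand of the motif, 140 of the 788 motifs in wide modest peaks held them, 17.8% (15.3 to 20.6), against 20.3% (19.8 to 20.7) of motifs in narrower peaks with modest summits, a difference of -2.49 points (-5.04 to 0.374). Since wide peaks hold more motifs, 118 of 444 members, 26.6%, had at least 1, against 17.7% of the narrower peaks and 41.3% of the wide peaks with tall summits (difference -14.7 points, -29.6 to -1.02). Such runs were looked for after the motifs had been seen, and repeats themselves were not annotated here.

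Single members show the pattern. The peak upstream of Trim71, which encodes an RNA-binding ubiquitin ligase of early development, lay 17302 bp from the gene start. It had the highest score of the group, 1036.5, with 160 CTCF and 8 IgG tags, a ratio of 19 (9.43 to 44.9). Its 5 maxima had heights of 23, 22, 13, 12 and 17 tags along the chromosome. The first, second and last of these had a motif 75, 5 and 59 bp away, and the remaining motif lay 202 bp from the nearest maximum. Thus 3 of its 5 mounds were centred close to 1 of the printed motifs.

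The peak in the intron of Pdzd7, a scaffold protein gene of sensory hair cells, was 3286 bp wide with 154 CTCF and 10 IgG tags. It had 4 maxima, of 14, 25, 22 and 16 tags, and 4 motifs, each within 90 bp of a different maximum. The first motif, not printed, overlapped an exon. In the intron of 4933432B09Rik, 124 CTCF and 3 IgG tags made 3 maxima of 28, 23 and 17 tags. Its highest maximum was 232 bp from the nearest motif, whereas the other 2 lay 30 and 6 bp from theirs. So the tallest mound of that peak was the one without a motif nearby.

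**Figure D5:**
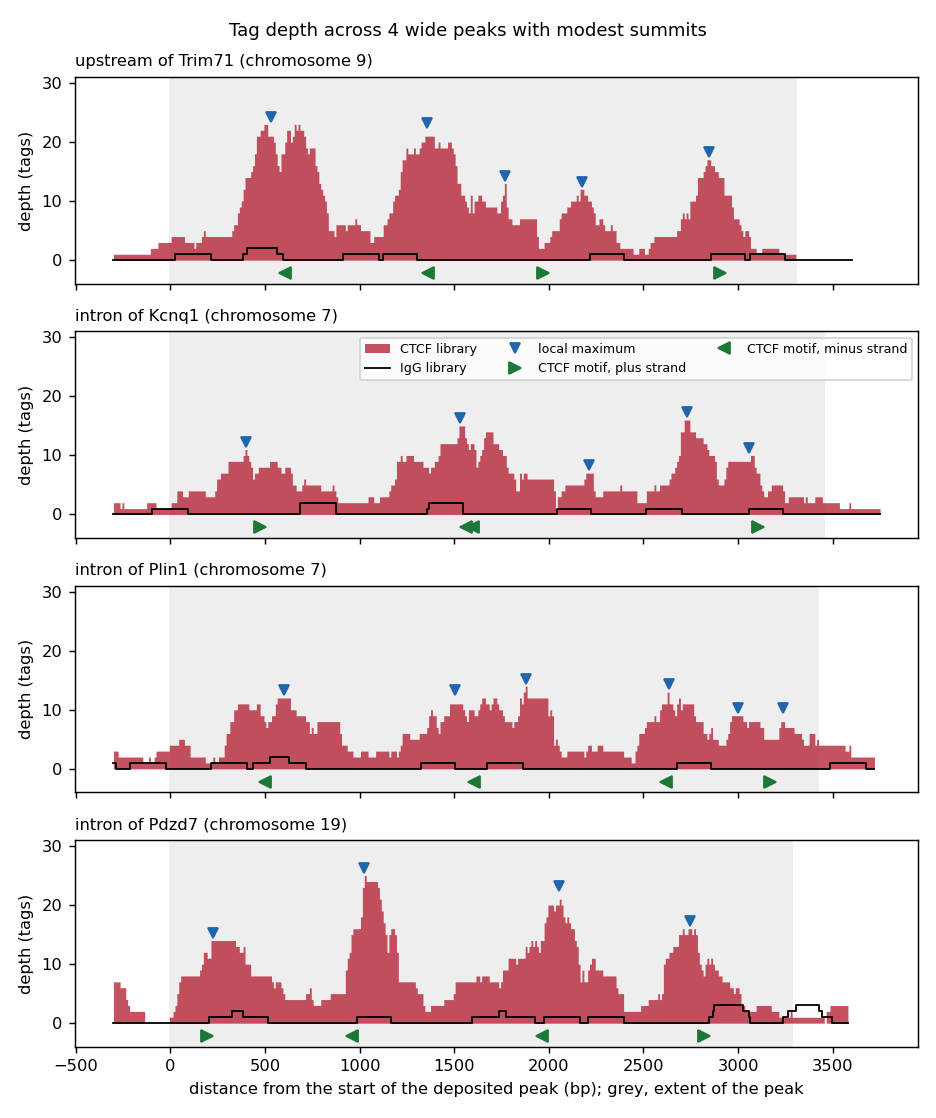
Depth of extended tags (vertical axes, tags) along 4 wide modest peaks by distance from the peak start in bp, for the CTCF library (filled) and the IgG library (black line), with local maxima (blue) and CTCF motifs (green, pointing along their strand). The Pdzd7 peak has 4 maxima with a motif near each, and the IgG depth stays low across all 4 peaks.

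In some members no mound stood out and the highest maximum had no motif near it. In an intron of Kcnq1, a potassium channel gene (chr7:150336801-150340251, 119 CTCF and 7 IgG tags), the 5 maxima had 11, 15, 7, 16 and 10 tags. Those of 11, 15 and 10 tags had a motif 77, 33 and 49 bp away, but the highest did not, its nearest motif being 377 bp away. In an intron of Plin1, a lipid droplet protein gene (chr7:86871670-86875092, 124 CTCF and 6 IgG tags), the 6 maxima had 12, 12, 14, 13, 9 and 9 tags, and 13.7% of the tags lay within 150 bp of the summit. The 4 motifs there lay 100, 102, 12 and 66 bp from a maximum, and the highest of the maxima had none within 150 bp.

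The widest and the most divided members differed in motif content. The widest, 3681 bp long and 12438 bp upstream of the transcription factor gene Nfic (chr10:80903557-80907237), had 5 maxima of at most 14 tags and only 1 motif, 68 bp from its second maximum. Its 26 IgG tags against 122 CTCF tags gave one of the lower ratios, 4.47 (2.91 to 7.11). The member with 7 maxima, in an intron of Ndufaf2, a gene for assembly of respiratory complex I (chr13:108941244-108944481, 123 CTCF and 16 IgG tags), held 3 motifs. The member with the most motifs, 6, lay in an intron of Ksr2, a scaffold gene of Ras signalling (chr5:117954344-117957027, 88 CTCF and 6 IgG tags), and had 5 maxima. Its 3 neighbouring motifs at 1011, 1044 and 1068 bp from the peak start all lay within 50 bp of the highest maximum. In an intron of Tjp3, a tight junction gene (chr10:80749211-80752409, 143 CTCF and 7 IgG tags), 6 maxima went with 2 motifs, 4 bp from the highest maximum and 111 bp from the nearest of the others. These numbers of motifs depend on the threshold. At p 1e-04 the Nfic, Ksr2 and Tjp3 peaks each held 7 motifs and the Ndufaf2 peak 3.

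The 11 members with 6 maxima had 7 intronic, 3 intergenic and 1 exonic summit. Beside those in Plin1 and Tjp3, the widest of them lay in introns of Gm9766 (chr10:53065579-53068707, 130 CTCF and 12 IgG tags, 2 motifs) and Arl15, a small GTPase gene (chr13:114654406-114657475, 144 CTCF and 13 IgG tags, 3 motifs). In both of these the 2 highest maxima had a motif of their own. The member in the intron of Acbd6, an acyl-CoA binding protein gene (chr1:157421838-157424346), had a score of 944, behind those of Trim71 and Pdzd7, with 136 CTCF and 8 IgG tags and maxima of 27, 19 and 18 tags. Motifs lay 84 bp from the highest and 75 bp from the lowest of them.

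The 5 highest scoring members without a motif at p 1e-05 still had 2 to 4 maxima. In the peak near the cytokine gene Il3 (chr11:54076537-54078666, 87 CTCF and 8 IgG tags) the 2 maxima had 21 and 20 tags. The peak at the start of the lincRNA B230206L02Rik (chr11:93993911-93995721, 85 CTCF and 6 IgG tags) had maxima of 27 and 12 tags and scored 494. The other 3 lay near Fxyd2, a subunit gene of the sodium pump (chr9:45219620-45221631), near the calcium channel subunit gene Cacna2d2 (chr9:107275602-107277530) and in an intron of Pigl, a gene of GPI anchor synthesis (chr11:62309244-62311168). Their highest maxima had 21, 25 and 18 tags. Each of the 5 peaks had at least 1 motif at p 1e-04.

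By gene context, wide modest peaks lay mostly within introns and rarely at promoters. Of the 444 summits, 231 were intronic, 52% (47.4 to 56.6), against 44.2% of all peaks, and this was 7.85 percentage points more than in narrower peaks with modest summits (3.17 to 12.5). Intergenic summits numbered 188, 42.3% against 45.3% of all peaks, with a difference from narrower modest peaks of -2.98 points (-7.52 to 1.69). Exonic summits numbered 20, 4.5% against 5.64%, with a difference of -1.14 points (-2.73 to 1.23). In the 1 kb upstream of a gene start were 5 summits, 1.13% (0.482 to 2.61), against 4.84% of all peaks and 3.73 points below narrower modest peaks (difference -3.73, -4.42 to -2.23). Of the wide peaks with tall summits, 0 of 46 had a summit there (difference 1.13 points, -6.61 to 2.61). Their summits were intronic in 41.3% (difference 10.7 points, -4.37 to 24.5). Both intervals included 0, so neither trait was shown to be particular to the members among wide peaks.

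Counted over the whole peak, 18 wide modest peaks held a gene start, 4.05% (2.58 to 6.32) against 3.18% of all peaks. The difference from narrower modest peaks was 0.932 points, with an interval from -0.556 to 3.2 that included 0. A wide peak has more room for a start. In an equal window of 900 bp to either side of the summit, 13 members had one, 2.93% against 6.24% of all peaks, and the difference turned to -3.32 points (-4.56 to -1.28). With narrower peaks weighted to the same summit heights it was -3.09 points (-4.36 to -1.04). The sign of the comparison with narrower peaks thus depended on the window. Of the wide peaks with tall summits, 0 of 46 had a start in the equal window, and the interval of the difference, -4.87 to 4.94 points, included 0. A CpG-rich summit, with a GC content of at least 55% and a CpG ratio of at least 0.65 over 500 bp, was found in 0 of 444 members, which allows a share of up to 0.676% by the limit of 3 counts and 0.858% by the Wilson interval, against 1.12% of all peaks. Wide peaks with tall summits also had 0 of 46. The nearest protein-coding gene start lay a median of 21147.5 bp from the summit (18696 to 24194), and over 25 kb away in 195 members. The median was 22841 bp (22308 to 23319) in narrower peaks with modest summits and 19462 bp (8067 to 35374) in wide peaks with tall summits. Both intervals overlap that of the members. The count over 25 kb was made for the members only.

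Of the 18 gene starts, 8 belonged to protein-coding genes. These were Ptges, which makes prostaglandin E (82 CTCF and 7 IgG tags), the retinol dehydrogenase gene Rdh11 (42 and 9), the amino acid transporter gene Slc36a1 (46 and 7), the RNA-binding protein gene Cpeb3 (82 and 15), Rnf215 (65 and 8), Wdr85 (83 and 13), the zinc finger gene Zkscan17 (97 and 9) and Gm10545 (80 and 8). The Ptges peak at chr2:30782914-30785691 had 3 motifs and the Rdh11 peak at chr12:80292628-80294444 none. A further 3 starts were immunoglobulin V segments on chromosome 12, Gm16948, Gm16594 and Ighv1-67. Their peaks had 10, 28 and 23 IgG tags beside 59, 115 and 81 CTCF tags, and ratios of 5.62, 3.91 and 3.35, all below the 8.76 of the group. The part of that local IgG signal in these 3 peaks was not tested.

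Genes of several lists were looked up for overlap with wide modest peaks. Of all 21281 protein-coding genes on these chromosomes, 250 overlapped one, 1.17%, and 8413 overlapped a CTCF peak of any kind, 39.5%. Of 29 pluripotency genes, 15 overlapped any peak and 0 a wide modest one. The same count was 0 for 26 imprinted genes, 11 early lineage genes and 39 Hox genes, of which 10, 2 and 9 overlapped any peak. Beside a share of 1.17% over all genes, a count of 0 in lists of this length says nothing particular about them. Kcnq1, which lies in an imprinted domain, was not on the imprinted list. Among 13 genes of cohesin and CTCF, 7 overlapped any peak and 2 carried a wide modest one in an intron. The difference from the share over all genes was not tested. In Ctcfl, the germline paralogue of Ctcf (chr2:172932487-172934317, 45 CTCF and 4 IgG tags), the 3 maxima had 12, 7 and 8 tags and 1 motif lay 121 bp from the highest. In Pds5b, which regulates the release of cohesin from DNA (chr5:151504729-151506571, 66 CTCF and 7 IgG tags), there was a single maximum of 22 tags with a motif 56 bp away, which made it the only member with 1 maximum.

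Among 24 clustered protocadherin genes, cell surface adhesion genes whose alternative promoters bind CTCF, 22 overlapped any peak, against 39.5% of all genes. Only Pcdha11 as annotated overlapped wide modest peaks, and it overlapped 2. The first (chr18:37156441-37158590) had 69 CTCF and 6 IgG tags and 3 maxima of 11, 14 and 9 tags, with a motif 7 bp from the highest. The second (chr18:37178866-37180912) had 80 CTCF and 8 IgG tags and 3 maxima of 12, 21 and 11 tags, and its only motif lay 17 bp from the last and lowest of them.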

How the data were processed

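The authors deposited, per the labels on mm9, the aligned tags of each library, 1 line per tag with a count of 1 and no position and strand repeated (0 repeats in either library), and MACS 1.4 peaks of the CTCF library against the IgG library. The deposited peak score is -10 times the log10 of the p-value, with a lowest value of 50, which is a p-value of 1e-05. The deposited summit signal is the number of tags piled up at the summit. The aligner is not given in the sources used here.

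From these files, tags were moved by 93 bp for counting and extended to 186 bp for depth, the fragment length at the 1000 highest scoring peaks. Maxima were called with scipy 1.17.1 (Python 3.11.15, numpy 2.4.6, pandas 2.3.3, matplotlib 3.10.9). The motif matrix used 192 sequences of a supplementary table held in part, a pseudocount of 1 and base frequencies of 0.29 (A, T) and 0.21 (C, G), and overlapping hits counted as 1. Annotation was GENCODE M1 on NCBI m37 (mm9). Gene context was taken in the order promoter (1 kb upstream), exon, intron, intergenic. Shares carry Wilson, differences Newcombe, ratios exact and medians order-statistic intervals at 95%. The scripts were checked on simulated data. Alternatives varied the thresholds of the rule, the maxima, motif and context settings and the scaling.

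The members and gene lists were chosen with earlier results of these data known. Peaks named are the 5 widest, the 5 with most maxima, the 5 with most motifs, the 5 highest scoring, the 5 highest scoring without a motif, the 3 on either side of each threshold (ties by width or name) and those in listed genes. The members with the extreme IgG ratios, with IgG maxima or with gene starts were named after their values were seen.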

Additional observations from a re-analysis of the deposited data

How the results depend on the processing

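Among the 14 results and their 55 alternatives, 23 alternatives gave values inside the interval, or within 1.5 times the count, 30 moved them further and 2 changed their sign. Widths of at least 1500 and 2500 bp gave 1348 and 63 peaks, with 2 or more maxima in 97.3% and 100% and 2 or more motifs in 41.8% and 79.4%, and at 2500 bp 9.52% held a gene start. Summits under 20 tags gave 268 peaks, with 2 or more maxima in 100% and a motif at the summit in 75.7%. The share with 2 or more maxima was 100% and 83.3% at a prominence of 3 and 8 tags, 97.5% with maxima 500 bp apart and 97.1% with tags extended to 300 bp. A motif p of 1e-04 raised the share with a motif at the summit to 90.3%, with 2 or more motifs to 86% and of all maxima but the highest with a motif from 30.5% to 43.3%, and a 50 bp window lowered the first to 38.3% and the last to 12.2%. Prominences of 3 and 8 tags gave 24.1% and 46.4% for the last. Gene starts were in 1.8% with protein-coding genes only and in 8.78% within 1 kb of the peak. Promoters of 5 kb held 10.1% and left 36.5% intergenic, and protein-coding promoters held 0.45%. The ratio to IgG was 9.77 scaled by tags outside the peaks and 16.9 within 150 bp of the summit. The share of tags near the summit was 25% with tags not moved and 42% within 300 bp. Reversed were the difference in motif share, -1.69 points at equal heights, and in gene starts, -3.32 points in equal windows. No paired analysis was possible because each antibody has a single library.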

Other observations

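Wide modest peaks were unevenly spread over the chromosomes. Chromosome 11 had 58 among its 2741 peaks, 2.12% (Wilson interval 1.64 to 2.73), and chromosome 3 had 10 among 1588, 0.63% (0.342 to 1.16), against 1.34% of peaks on chromosomes 1 to 19. Both chromosomes were picked after their values had been seen. The members also tended to have close neighbours. Another deposited peak lay within 10 kb in 259 of 444, 58.3% against 49.5% of all peaks. The median gap was 6841 bp against 10313 bp in narrower peaks with modest summits. This was not particular to the members. In wide peaks with tall summits the values were 65.2% and 3384.5 bp, and in narrower tall peaks 58.3% and 7051.5 bp. GC content over the whole peak had a median of 45.4% in members and 45.5% in narrower peaks with modest summits.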
